A study of Mus musculus with 12 samples.

Results

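The genes described here are glycosyltransferases and sulfotransferases that build the outer glycans of the cell surface. They were taken by symbol, as every entry of the deposited count table whose name begins with St3gal, St6gal, St8sia, B4galt, B4galnt, B3gnt, B3galt, Fut, Chst or Gcnt, and 75 of the 23306 genes in the table qualified. They were read in 12 RNA-seq libraries of stromal cells sorted from the thymus of C57 BL6 mice in which tomato fluorescence reports KitL, the growth factor Kit ligand. All 4 groups had the reporter strain in common, and each held 3 libraries. Vascular endothelial cells (VEC) were Lin-, Dapi-, EpCAM- and CD31+, and were split into a tomato+ and a tomato- group. Cortical thymic epithelial cells (cTEC) were EpCAM+, CD31-, Ly51+, UEA1- and tomato+. Medullary thymic epithelial cells (mTEC) were EpCAM+, CD31-, UEA1+, Ly51- and tomato-, so in the epithelium an effect of the reporter cannot be told apart from cortex against medulla. UEA1 is a plant lectin that binds fucose on terminal glycans, and it was therefore part of the sort itself. The labels give no age and do not say that replicates were separate animals, so the p-values below measure only the spread between these samples.

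These enzymes work in the Golgi, where each adds a single sugar or sulfate to a growing chain, and the set a cell transcribes limits which terminal structures it can display. In vessels, sialylated, fucosylated and sulfated chains on mucin-like proteins are ligands for L-selectin on circulating lymphocytes, which bind them before entering a tissue. Other members cap proteins with sialic acid, build gangliosides on ceramide, or sulfate the chondroitin chains of proteoglycans.

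Total counts per library were 8388869 to 11807130. The endothelial marker list summed to 6861 to 10154 CPM (counts scaled to library size with TMM factors, the unit used below unless RPKM is named) in VEC, with all 8 markers at a mean of at least 5 CPM, and the epithelial list summed to at most 1.56 CPM there. In TEC the epithelial list summed to 2738 to 4109 CPM. The endothelial and epithelial lists thus separated VEC from TEC, while several other lists were present or differed within the labelled types. Replicate 2 of cTEC held an endothelial sum of 325 CPM, against 2.25 and 20.3 CPM in the other cTEC libraries. Replicate 1 of tomato- VEC held a platelet and erythroid sum of 196 CPM, against 3.36 and 9.86 CPM in the other 2. The mTEC libraries had a myeloid and dendritic sum of 385 to 412 CPM, and the cTEC libraries a thymocyte sum of 75.6 to 113 CPM and a mesenchymal sum of 1593 to 2192 CPM. Cortical markers summed to 8497 to 10261 CPM in cTEC and 1300.2 to 2910 CPM in mTEC, and medullary markers to 624 to 1067 and 4882 to 6285 CPM. The vessel subtype lists differed between the VEC groups. Venous and post-capillary markers summed to 601 to 1393 CPM in tomato+ and 7796 to 8032 CPM in tomato- VEC, and arterial markers to 943 to 1003 and 165 to 213 CPM. The lymphatic list summed to 49.7 to 62.5 CPM in tomato+ VEC, with 1 of its 6 markers at a mean of 5 CPM or more, and to 262 to 378 CPM in tomato- VEC, with 5 of 6. This list was higher still in TEC, at 1022 to 5172 CPM, with 2 of 6 at that level in each TEC group. Its marker Ccl21a is also on the medullary list, so the sums of these lists are not independent. The cortical list summed to 936 to 1156 CPM in tomato+ VEC, where 1 of its 5 markers reached a mean of 5 CPM. It summed to 4734 to 6263 CPM in tomato- VEC, where 2 of 5 did. The medullary list, with 2 of 7 at that level in tomato- VEC, summed to 9.83 to 86.3 and 152 to 351 CPM. The tuft list summed to 0.518 to 21.5 and 31.5 to 191 CPM, with 1 of 6 at that level and Pou2f3, Il25 and Chat at 0 in tomato- VEC. Their part in the results was not tested.

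Of the 75 members, 57 passed the filter, which asks for counts in enough libraries, and were tested, and 18 did not. The 18 were Chst4, Fut7, Gcnt3, B3gnt7, St8sia1, B4galnt2, Chst9, B3gnt8, Chst10, B4galnt3, St8sia5, St6galnac1, St8sia3, B3gnt6, Fut4-ps1, Chst13, St6galnac5 and Gcnt7, with 792 (Chst4) down to 2 (Gcnt7) counts over all 12 libraries. The tested members passed a filter on low counts, so a gene high in a single group could enter through that group. Summed over all members, tomato+ VEC libraries had 2148 to 2609 CPM and tomato- VEC libraries 2715 to 3280 CPM, against 693 to 909 CPM in cTEC and 816 to 1057 CPM in mTEC. Each VEC library thus carried more of these transcripts than any TEC library.

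**Figure D1:**
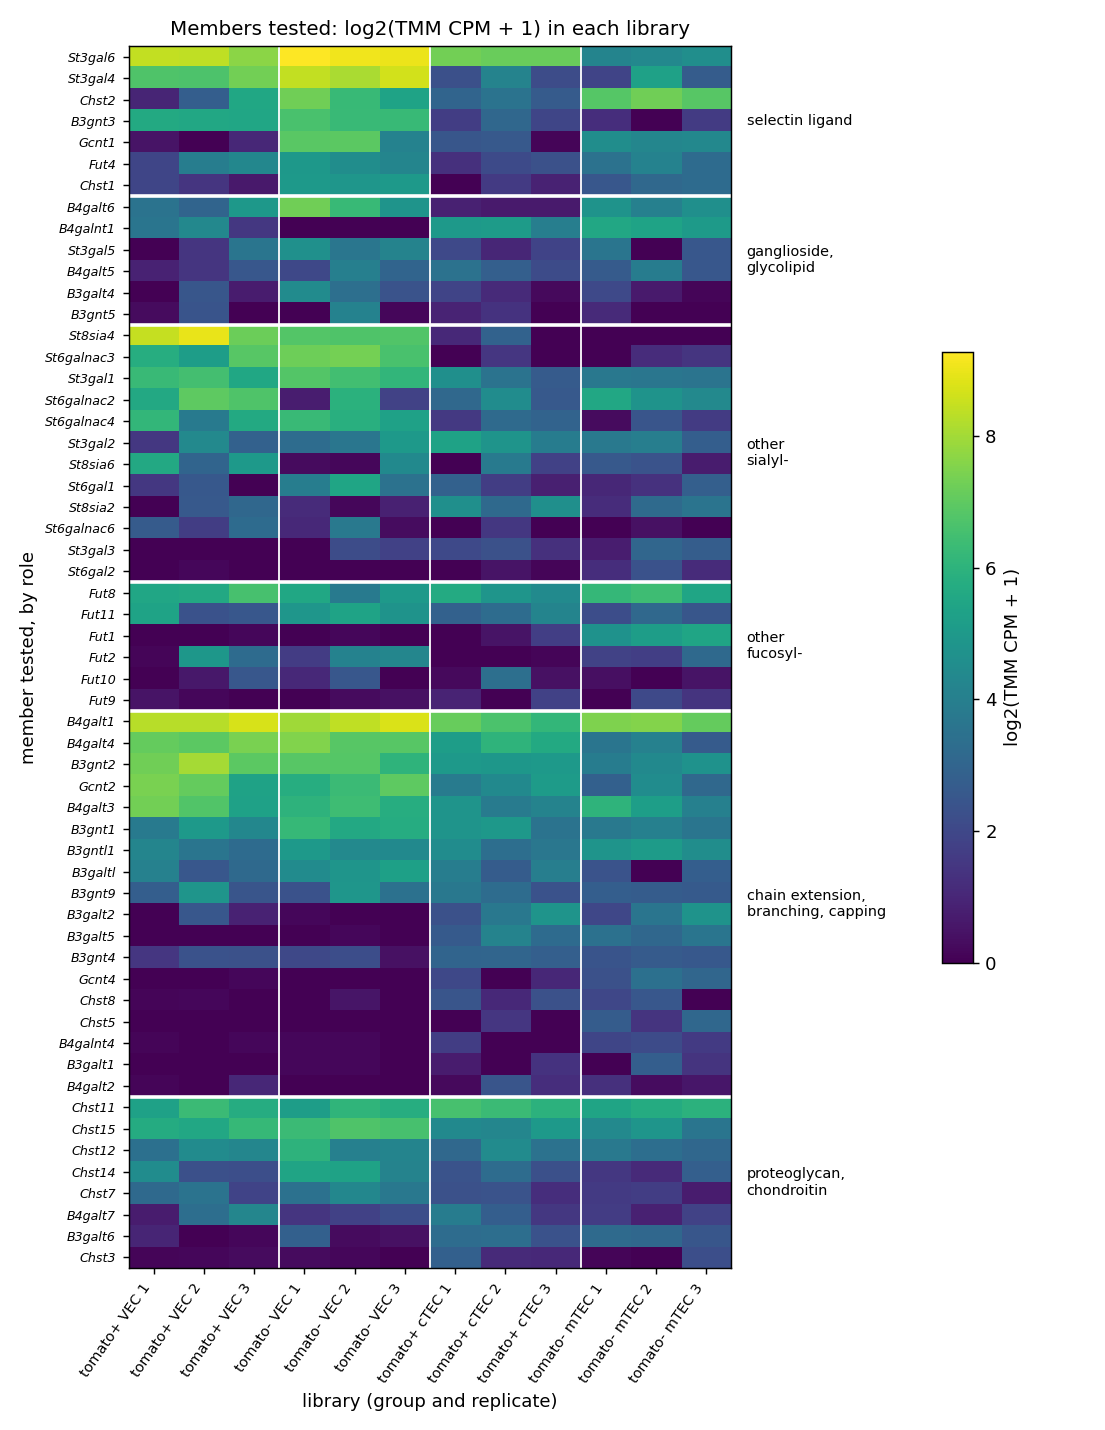
Level of the 57 tested members (vertical axis, grouped by role) in each of the 12 libraries (horizontal axis), as log2(TMM CPM + 1). St3gal6 and B4galt1 were bright in every VEC library, St8sia4 and St6galnac3 were at most 6.55 and 1.76 CPM in the TEC libraries, and Fut1 stood out in mTEC.

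Levels of different genes were compared on the deposited RPKM scale, which divides counts by gene length. St3gal6, a sialyltransferase that caps galactose and is used for selectin ligands, was the leading member in 3 of the 4 groups. Tomato- VEC had 332 ± 21.5 RPKM (SD, n = 3), tomato+ VEC 166 ± 44.0 and cTEC 103 ± 7.59, and it did not overlap the next member in any of these. In tomato- VEC the next was St3gal4, a related sialyltransferase, at 158 ± 33.9 RPKM, followed by the galactosyltransferase B4galt1 at 70.7 ± 21.1, B4galt4 at 56.5 ± 13.5 and B3gnt3 at 37.5 ± 4.56. In tomato+ VEC B4galt1 (68.9 ± 12.8 RPKM), B3gnt2 (60.0 ± 24.1), B4galt4 (55.5 ± 10.2) and the polysialyltransferase St8sia4 (55.4 ± 29.4) followed, and these overlapped each other. In cTEC the order below St3gal6 was B4galt1 (25.1 ± 8.59 RPKM), B4galt4 (23.9 ± 7.06), the chondroitin sulfotransferase Chst11 (15.8 ± 3.52) and B3gnt2 (12.5 ± 0.551). In mTEC St3gal6 was not among the leading 5. There B4galt1 came to 38.7 ± 6.35 RPKM, the sulfotransferase Chst2 to 21.5 ± 3.15, the core fucosyltransferase Fut8 to 20.7 ± 6.34, B4galt3 to 20.6 ± 13.6 and the ganglioside enzyme B4galnt1 to 16.9 ± 3.20.

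The comparison of endothelium with epithelium asked which of these enzymes separate the cell types, whatever the reporter. Among the members higher in VEC were the sialyltransferases St3gal6, St3gal4, St3gal1, St6galnac3 and St8sia4, and among those higher in TEC were B3galt5, Fut1 and B4galnt1. Of these, Fut1 and B4galnt1 had overlapping libraries. Fut1 was counted mostly in mTEC, and B4galnt1 had no count in tomato- VEC. Of the 57 members tested 34 were called (adjusted p under 0.05, edgeR quasi-likelihood test with Benjamini-Hochberg adjustment over all 14792 genes tested), 20 higher and 14 lower in VEC. Among all genes tested 36.3% were called, 14.4% higher and 21.8% lower. The median log2 fold change was 1.02 over the members and -0.18 over all genes tested. Libraries of the 2 sides did not overlap for 12 members higher and 2 lower in VEC, where 7.49% and 9.49% of all genes were so separated. Of the calls, 15 higher and 6 lower were made in each of the 12 fits that left out a library, and the other 13 were not. In bulk samples such as these, fewer cells of a type and less RNA per cell cannot be told apart.

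Among the selectin ligand enzymes 4 of 7 tested rose in VEC and none fell. St3gal6 stood at 341, 335 and 201 CPM in the tomato+ VEC libraries, 621, 542 and 518 in tomato- VEC, 159, 141 and 143 in cTEC and 17.3, 18.9 and 23.3 in mTEC. All VEC libraries were above all TEC libraries, cTEC lay between, and the log2 fold change was 2.90 (SE 0.18, adjusted p = 2.26e-07). RefSeq places Dcbld2 on the same stretch as St3gal6, and Dcbld2 had means of 51.8, 46.6, 79.2 and 17.6 CPM in the same order of groups. Since strand use in the counting is not stated, reads of overlapping genes cannot be told apart. St3gal4 stood at 104.5, 101 and 159 CPM in the tomato+ VEC libraries, 343, 273 and 399.8 in tomato- VEC, 3.84, 16.9 and 3.46 in cTEC and 2.69, 38.3 and 5.52 in mTEC. Its lowest VEC library was above its highest TEC library, and its highest cTEC value was in the replicate with endothelial RNA (log2 fold change 4.18, SE 0.65, adjusted p = 0.000366). B3gnt3, which extends core O-glycans, stood at 48.6, 46.1 and 43.8 CPM in the tomato+ VEC libraries, 98.2, 77.1 and 75.6 in tomato- VEC, 2.20, 7.63 and 2.85 in cTEC and 1.35, 0 and 2.08 in mTEC. No TEC library came near the VEC libraries (log2 fold change 4.80, SE 0.67, adjusted p = 0.000156). Fut4, a fucosyltransferase that completes Lewis-type ends, was called at a log2 fold change of 1.52 (SE 0.55, adjusted p = 0.0483), but its libraries overlapped and the call held in 1 of 12 fits that left out a library, with adjusted p up to 0.103. Chst1 (log2 1.45, adjusted p = 0.174), Chst2 (0.33, 0.749) and Gcnt1 (-0.27, 0.837) did not pass. The fitted value averages group log means, and for Chst2 and Gcnt1 its sign ran against the mean levels. Gcnt1 had 43.5 ± 60.8 CPM over 6 VEC and 11.6 ± 9.44 CPM over 6 TEC libraries. Chst2 had 53.3 ± 55.5 and 67.7 ± 67.3 CPM.

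The other sialyltransferases gave 5 members higher and 2 lower in VEC among 12 tested. St8sia4, which builds polysialic acid, stood at 351, 498 and 147 CPM in the tomato+ VEC libraries, 109.8, 104 and 108 in tomato- VEC, 1.10, 6.55 and 0 in cTEC, and had no count in mTEC. VEC and TEC did not overlap, and the ratio of pooled levels was 173-fold (adjusted p = 6.77e-05). Of the 79 counts in TEC, 67 came from cTEC replicate 2, the library with endothelial RNA. St6galnac3, which adds sialic acid to the first sugar of O-glycans, stood at 53.9, 34.5 and 117 CPM in the tomato+ VEC libraries, 148, 162 and 96.5 in tomato- VEC, 0, 1.76 and 0 in cTEC and 0, 1.28 and 1.68 in mTEC. Every VEC library was above every TEC library, at a log2 fold change of 6.97 (SE 1.02, adjusted p = 0.000217). St6galnac4 was higher by 3.82 (SE 0.70, adjusted p = 0.00116) and St3gal1, which caps core O-glycans, by 2.68 (SE 0.38, adjusted p = 0.000177), both without overlap. St6galnac6 was called higher (5.00 ± 4.79 against 0.368 ± 0.743 CPM, adjusted p = 0.0494), with 3 counts in mTEC, but in only 3 of 12 fits without a library. St3gal3 and St6gal2 were called lower at levels of at most 7.43 CPM in any library. St3gal3 had a mean of 0.993 ± 1.57 CPM over 6 VEC libraries and 3.71 ± 2.54 over 6 TEC libraries, 3.56-fold lower as a pooled ratio. St6gal2 had 1 count in VEC and 69 in TEC, a ratio of 58.0 (95% counting interval 10.1 to 2325), and its call was lost without cTEC replicate 2.

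Enzymes that extend, branch and cap chains were called in both directions, 6 higher and 8 lower of 18 tested. B4galt1, which adds galactose to most N-glycans, stood at 309.5, 310.1 and 416 CPM in the tomato+ VEC libraries, 249, 337 and 426 in tomato- VEC, 138, 98.7 and 70.2 in cTEC and 179.6, 186 and 134 in mTEC. It was thus high in all 12 libraries, and higher in VEC by 1.39 on the log2 scale (SE 0.21, adjusted p = 0.000264) without overlap. B3gnt2, the enzyme of poly-lactosamine chains, rose by 2.43 (SE 0.27, adjusted p = 2.27e-05), B4galt4 by 2.59 (SE 0.29, adjusted p = 2.96e-05) and the branching enzyme Gcnt2 by 2.60 (SE 0.46, adjusted p = 0.000878), each without overlap. B4galt3 rose by 1.59 (SE 0.41, adjusted p = 0.0100) with overlapping libraries. B3gnt1, today named B4gat1, was called at 1.02 (SE 0.37, adjusted p = 0.0485) but in only 1 of 12 fits without a library.

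Several of those lower in VEC had counts there at or near 0. B3galt5, which makes type 1 chains, had 1 count over the 6 VEC libraries, and stood at 5.22, 16.7 and 8.38 CPM in cTEC and 10.0, 7.66 and 11.2 in mTEC. The TEC libraries were all above the VEC libraries, and the ratio of pooled counts was 534 (counting interval 95.5 to 21129, adjusted p = 0.000139). Gcnt4 had 1 count in VEC and 262 in TEC, a ratio of 220.4 (39.2 to 8737). Its libraries overlapped, and 217 of the TEC counts came from mTEC. Chst5 had 0 counts in VEC and 185 in TEC, which makes it at least 51.9-fold lower. The Chst5 call was lost without cTEC replicate 2, the only cTEC library in which the gene was counted. B3galt2 was called lower (adjusted p = 0.00458), with means of 0.944 ± 1.87 CPM over 6 VEC and 13.8 ± 10.4 CPM over 6 TEC libraries. Its libraries overlapped, since tomato+ VEC replicate 2 stood at 4.70 CPM, and tomato- VEC had 1 count. It lies on the same stretch as Cdc73. Chst8, B3galt1, B4galnt4 and B4galt2 were also called lower, at means of at most 2.86 CPM in either cell type, and each lost the call in at least 5 of 12 fits without a library.

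**Figure D2:**
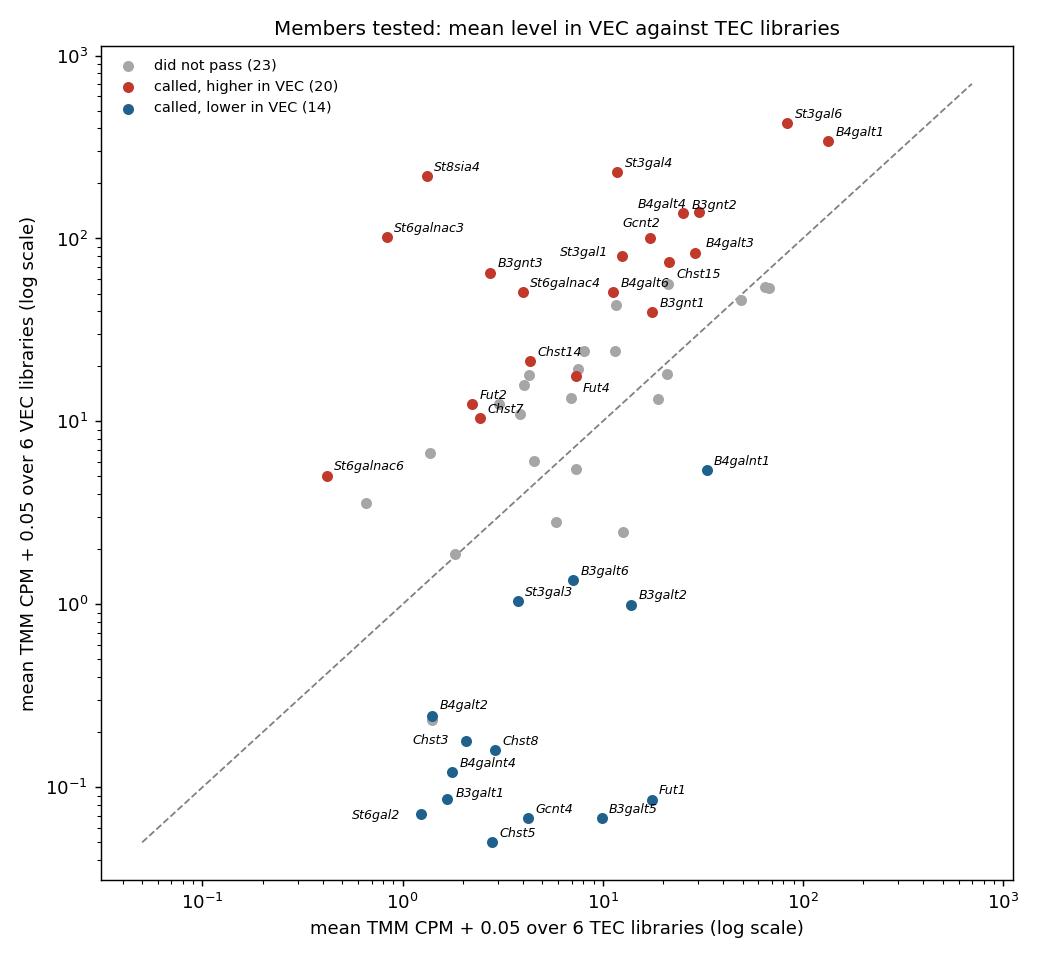
Each point is a tested member, placed by its mean TMM CPM + 0.05 over 6 TEC libraries (horizontal, log scale) and over 6 VEC libraries (vertical, log scale). The dashed line marks equal levels, colours mark the 20 members called higher and the 14 called lower in VEC, and 23 did not pass.

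In the ganglioside group 1 of 6 tested rose and 1 fell. B4galt6, which makes the lactosylceramide precursor, stood at 10.5, 6.92 and 30.0 CPM in the tomato+ VEC libraries, 155, 75.3 and 27.0 in tomato- VEC, 0.824, 0.587 and 0.605 in cTEC and 26.3, 15.3 and 23.8 in mTEC. Its call (log2 fold change 3.25, SE 0.53, adjusted p = 0.000472) thus averaged a low cTEC and an mTEC level that overlapped VEC. B4galnt1, which makes the complex gangliosides by adding N-acetylgalactosamine, was lower in VEC as a pooled ratio of 6.46 (adjusted p = 0.000159). Its tomato- VEC group had no count, and its tomato+ VEC libraries overlapped those of cTEC. Among the other fucosyltransferases Fut2 was called higher (adjusted p = 0.00773), at 12.4 ± 11.0 CPM over VEC and 2.18 ± 3.13 CPM over TEC. The VEC and mTEC libraries overlapped, and cTEC had 1 count. Fut1 fell, with 2 counts in VEC and 1122 in TEC, a ratio of 472 (130.3 to 3901, adjusted p = 0.000979). Of the TEC counts of Fut1, 1091 came from mTEC and 31 from cTEC, whose libraries overlapped VEC. Of the proteoglycan and chondroitin enzymes 3 of 8 were called higher and 2 lower. Chst15, which adds a further sulfate to chondroitin, rose without overlap by 1.77 (SE 0.30, adjusted p = 0.000603). Chst7 (2.12), Chst14 (2.13), Chst3 (means of 0.129 and 2.03 CPM) and B3galt6 (-2.96) were called with overlapping libraries and lost the call in 2 to 10 of 12 fits without a library.

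The 250 bases before the annotated start of 6 of these genes are given from RefSeq (GRCm38.p6) for genes chosen with their values known: St8sia4, St6galnac3, St3gal4 and B3gnt3, higher in VEC than in TEC, Fut1, higher in TEC, and Chst2, lower in cTEC than in mTEC but at overlapping levels in mTEC and tomato- VEC. Each is written 5′ to 3′ along its gene, so that the last base lies next to the start. Capitals mark matches, on either strand, to any of 6 motifs. The ETS-type motif was searched as CNGGAAG, and the AP-1-type motif was searched as TGANTCA. The GC box was searched as GGGCGG, the TATA box was searched as TATAAA, and the E-box was searched as CACGTG. The last was the NF-kB-type motif.
St8sia4 (chr1:95667595-95667844, minus strand): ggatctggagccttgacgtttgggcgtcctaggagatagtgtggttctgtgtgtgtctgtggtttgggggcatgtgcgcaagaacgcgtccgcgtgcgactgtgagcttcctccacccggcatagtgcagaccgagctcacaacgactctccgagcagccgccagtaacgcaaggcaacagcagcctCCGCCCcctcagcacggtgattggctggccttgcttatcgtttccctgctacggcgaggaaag
St6galnac3 (chr3:153725134-153725383, minus strand): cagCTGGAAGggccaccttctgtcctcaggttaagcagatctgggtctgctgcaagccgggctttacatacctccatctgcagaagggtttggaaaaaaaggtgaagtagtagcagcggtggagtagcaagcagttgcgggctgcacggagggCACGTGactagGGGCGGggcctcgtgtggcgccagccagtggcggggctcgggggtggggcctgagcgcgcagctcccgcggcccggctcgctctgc
St3gal4 (chr9:35116865-35117114, minus strand): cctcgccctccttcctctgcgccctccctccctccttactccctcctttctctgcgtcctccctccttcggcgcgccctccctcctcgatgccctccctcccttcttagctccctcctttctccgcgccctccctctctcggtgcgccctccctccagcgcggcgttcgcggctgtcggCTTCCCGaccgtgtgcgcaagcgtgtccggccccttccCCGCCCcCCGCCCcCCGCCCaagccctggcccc
B3gnt3 (chr8:71701801-71702050, minus strand): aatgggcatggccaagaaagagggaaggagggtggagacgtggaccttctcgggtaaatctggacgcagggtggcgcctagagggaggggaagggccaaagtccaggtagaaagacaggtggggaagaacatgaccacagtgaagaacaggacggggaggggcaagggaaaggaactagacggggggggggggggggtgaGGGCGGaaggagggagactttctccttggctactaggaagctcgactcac
Fut1 (chr7:45617356-45617605, plus strand): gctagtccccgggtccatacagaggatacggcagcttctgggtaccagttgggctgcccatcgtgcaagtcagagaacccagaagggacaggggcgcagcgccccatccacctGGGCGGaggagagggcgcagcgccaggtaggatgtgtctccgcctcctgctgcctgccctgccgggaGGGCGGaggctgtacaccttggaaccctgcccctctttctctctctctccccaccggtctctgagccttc
Chst2 (chr9:95407271-95407520, minus strand): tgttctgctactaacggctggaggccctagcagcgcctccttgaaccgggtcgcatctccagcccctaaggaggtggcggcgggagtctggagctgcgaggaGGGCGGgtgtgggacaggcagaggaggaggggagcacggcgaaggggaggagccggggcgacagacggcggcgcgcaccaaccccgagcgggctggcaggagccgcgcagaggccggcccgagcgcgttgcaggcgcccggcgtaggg
All 6 held at least 1 GC box, and St3gal4 held 3. An ETS-type match was found in St6galnac3 and St3gal4, and an E-box in St6galnac3. None of the matches overlapped another. Promoter entries existed for 56 of the 75 members. A GC box was present in 41 of these 56, in 14 of 16 members called higher in VEC and in 8 of 13 called lower, and in 35.4% of the 27025 genes with a promoter in the RefSeq table. ETS-type matches were present in 17 of 56 members, 4 of 16 higher and 5 of 13 lower in VEC, and 29.2% of all genes. AP-1-type matches were in 3 of 56 members and 7.82% of all genes, NF-kB-type in 0 of 56 and 0.414%, TATA boxes in 1 of 56 and 14.3%, and E-boxes in 5 of 56 and 6.86%. The RefSeq genes were not limited to those of the count table. A gene with more than 1 start, as 10 members had, was counted if any start matched. The shares of members and of all genes are thus over unlike sets, and their difference was not tested. A match is a run of letters only, and the libraries do not show which start was used.

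Within the endothelium, the comparison of tomato+ with tomato- VEC asked which members follow the reporter. B4galnt1 was higher and Gcnt1 lower in tomato+ VEC, and no other member passed the test. Of 57 members 1 was called higher and 1 lower, against 0.568% and 1.08% of all genes tested (1.65% together). The median fitted log2 fold change was -0.37 over the members and 0.0 over all genes. The member median was -0.78 where members with 3 or fewer counts in a group were set to their bound or ratio. There 7 members with that few in both groups were left out, and no such median was computed over all genes. Libraries did not overlap for 3 members higher and 11 lower in tomato+ VEC, where 7.45% and 8.32% of all genes were so separated. Leaving out tomato+ VEC replicate 3 raised the calls to 4, adding Chst2 and B4galt6 below, and over the other fits without a library the count was 1 or 2. St6galnac2, fitted higher in tomato+ VEC (2.12, adjusted p = 0.418), passed only without tomato- VEC replicate 2 (adjusted p = 0.0183).

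All 7 selectin ligand enzymes tested had negative fitted values (median log2 -1.48), 5 of them without overlap, and 1 was called. Gcnt1, which makes the core 2 branch that carries selectin ligands on O-glycans, stood at 0.415, 0 and 1.07 CPM in tomato+ VEC and 119.7, 123 and 16.2 in tomato- VEC. The groups did not overlap although tomato- replicate 3 was far below the other 2 (log2 fold change -7.38, SE 1.48, adjusted p = 0.0272). The call was lost without either of tomato+ VEC replicates 1 and 2 or tomato- VEC replicates 1 and 2, with adjusted p up to 0.0851. Chst1, a sulfotransferase of galactose, stood at 2.80, 1.70 and 0.534 CPM against 30.8, 28.1 and 30.5. Its libraries were far apart and the tomato- values close together, but it did not pass (log2 -4.14, SE 1.21, adjusted p = 0.116; DESeq2 0.000175). St3gal6, with the values given above, was lower in each tomato+ than in each tomato- library but did not pass (-0.94, SE 0.23, adjusted p = 0.0698; DESeq2 0.00478). St3gal4 was likewise separated (-1.48, SE 0.82, adjusted p = 0.414), as was B3gnt3 (-0.86, SE 0.81, adjusted p = 0.654). Chst2, which sulfates N-acetylglucosamine, stood at 0.933, 5.87 and 45.4 CPM against 152, 74.6 and 40.9. The overlap came from tomato+ replicate 3, and without that library the log2 fold change was -4.71 with adjusted p = 0.0188, against -2.35 (SE 0.97) and 0.258 with it. Fut4 overlapped between the groups (-0.99, SE 0.77, adjusted p = 0.591).

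Chst4 and Fut7, the sulfotransferase and the fucosyltransferase best known from lymph node high endothelial venules, had counts in too few libraries for the test. Chst4 stood at 73.7 CPM in tomato- VEC replicate 1, 14.2 CPM in mTEC replicate 2 and at most 0.224 CPM in the other 10 libraries. Fut7 stood at 26.3, 11.8 and 0 CPM in tomato- VEC and at most 0.560 CPM elsewhere. Both were thus found in some tomato- VEC libraries and not in the whole group, and the library with the most of both was replicate 1, which also had the platelet and erythroid sum given above. Glycam1, a mucin-like carrier of L-selectin ligands, followed the same library, at 627, 4.56 and 16.2 CPM in tomato- VEC. It had 1 count in tomato+ VEC against 5829, a ratio of 5677 (1019 to 224277, adjusted p = 0.0187). Other carriers did not follow it. Podxl stood higher in tomato+ VEC, at 664, 345 and 192 CPM against 52.1, 103 and 84.9 CPM, without overlap. Means in tomato+ and tomato- VEC were 2750 and 3003 CPM for Cd34, 2073 and 2228 for Emcn, and 171 and 171 for Mcam. None of these carriers was called. Glycam1 and the tested selectin ligand members were fitted lower in tomato+ VEC, most of them without a call. Beside this stood the lower venous, lymphatic, cortical, medullary and tuft marker sums and the higher arterial sum given above. The epithelial list summed to at most 1.56 CPM in VEC. The part of these lists in the result was not tested.

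**Figure D3:**
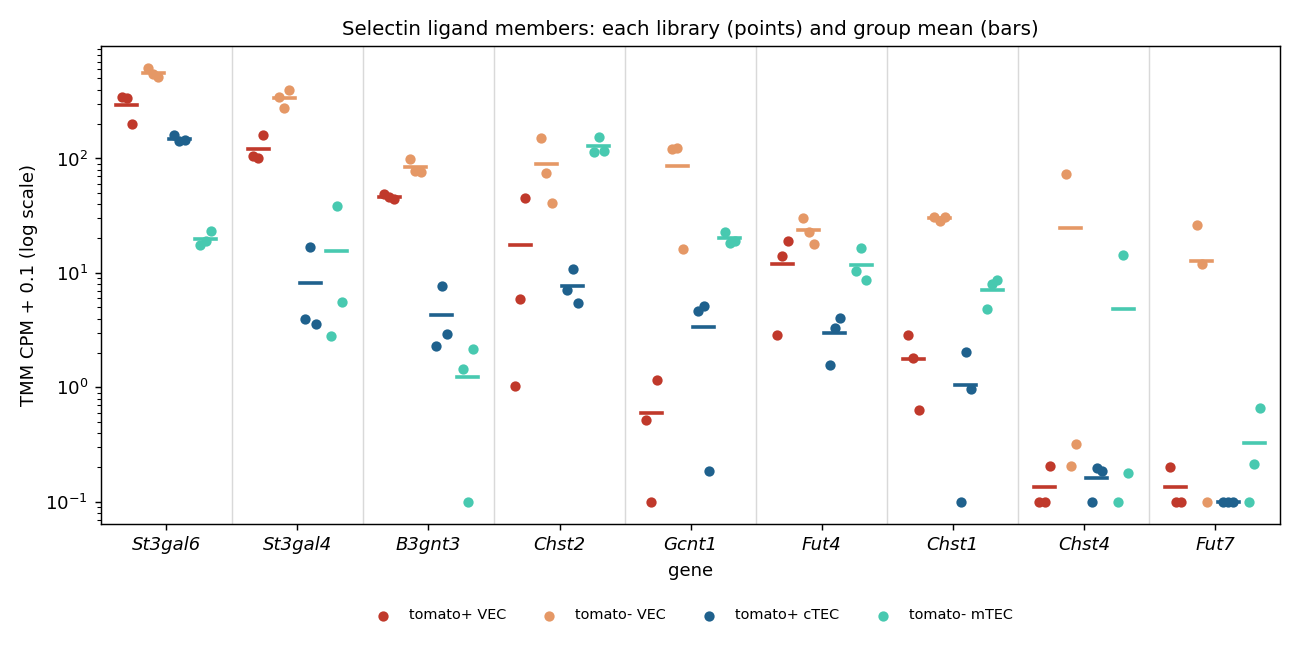
TMM CPM + 0.1 (vertical, log scale) of the 9 selectin ligand members in each library (points, 3 per group) with the group mean (bars). Tomato- VEC points lay above tomato+ VEC points for St3gal6, St3gal4, B3gnt3, Gcnt1 and Chst1, while Chst4 and Fut7 rose above the floor in a few libraries only.

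In the ganglioside group B4galnt1 was called higher in tomato+ VEC. It stood at 11.1, 19.2 and 1.82 CPM there and had no count in the 3 tomato- VEC libraries. The groups did not overlap, with replicate 3 well below the others, and the level was at least 92.7-fold higher against a floor of 3 counts over the tomato- group (adjusted p = 0.00752, and 0.00195 to 0.0230 over the 12 fits without a library). With only the 6 VEC libraries in the fit the adjusted p was 0.120. RefSeq places Slc26a10 on the same stretch, and Slc26a10 stood at 226, 122 and 83.1 CPM in tomato+ VEC and at most 0.106 CPM in tomato- VEC. Reads of Slc26a10 counted for B4galnt1 cannot be told apart here. In TEC B4galnt1 was at 14.9 to 46.2 CPM with Slc26a10 at 0.950 to 5.77 CPM. The other tested ganglioside members were all fitted lower in tomato+ VEC, and none passed. St3gal5, which makes GM3, stood at 0, 1.70 and 11.2 CPM against 24.4, 11.5 and 16.9, without overlap (-2.03, SE 1.68, adjusted p = 0.600). B4galt6 (-2.44, SE 0.71, adjusted p = 0.114) passed without tomato+ VEC replicate 3 (adjusted p = 0.0469) and with DESeq2 (0.00993). B4galt5 (-1.80, adjusted p = 0.410), B3galt4 (-2.74, 0.465) and B3gnt5 (-1.87, 0.769) overlapped. St8sia1 and St8sia5, which add further sialic acid to gangliosides, had 93 and 17 counts over all libraries and were not tested.

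In the other roles, members separated without a call included St8sia4, higher in tomato+ VEC (1.63, SE 0.94, adjusted p = 0.440), and B3gnt1 (-1.51, SE 0.53, 0.187), St6gal1, which adds sialic acid to N-glycans (-3.33, SE 1.47, 0.288), and B3galtl, today B3glct (-1.59, SE 1.14, 0.546), all lower. St6gal1 stood at 1.87, 4.83 and 0 CPM in tomato+ and 14.1, 43.0 and 10.4 CPM in tomato- VEC. Fut2 overlapped between the groups (0.06, SE 1.38), and Fut1 had 1 count in each.

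In the epithelium, tomato+ cTEC differed from tomato- mTEC in a few members of several roles. St3gal6 and B4galt4 rose in cTEC, B4galt6 and Chst2 fell, and St8sia4 was called higher on few counts. These were 5 of 57 members, against 7.83% of all genes tested (2.73% higher and 5.1% lower). The median log2 fold change was 0.12 for the members and 0.02 for all genes. Libraries did not overlap for 5 members higher and 10 lower in cTEC, where 18.7% and 20.3% of all genes (39.0% together) were so separated. The calls of St3gal6, B4galt6 and B4galt4 were made in all 12 fits without a library, and those of Chst2 and St8sia4 in 5 and 1.

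Among the selectin ligand enzymes St3gal6 rose, with the values given above, by 2.90 on the log2 scale (SE 0.25, adjusted p = 0.000102). The groups did not overlap, and Dcbld2, on the same stretch, also had a higher mean in cTEC (79.2 against 17.6 CPM); its part in the result was not tested. Chst2 stood at 6.95, 10.7 and 5.36 CPM in cTEC and 114, 153 and 117 in mTEC. The groups were far apart (-4.06, SE 1.05, adjusted p = 0.0361), but the call was lost without any single cTEC or mTEC library or tomato- VEC replicate 2, with adjusted p up to 0.122. Gcnt1 stood at 4.58, 5.09 and 0.0864 CPM against 22.7, 18.2 and 19.0, Fut4 at 1.46, 3.23 and 3.97 against 10.2, 16.4 and 8.56, and Chst1 at 0, 1.96 and 0.864 against 4.71, 7.89 and 8.56. All were lower in each cTEC library than in each mTEC library, and none passed (adjusted p = 0.229, 0.166 and 0.170). B3gnt3 was separated upward (1.85, SE 0.86, adjusted p = 0.253), and St3gal4 overlapped (-0.94, SE 0.83, 0.637).

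In the ganglioside group B4galt6, with the values given above, fell to under 1 CPM in all 3 cTEC libraries (-4.99, SE 0.81, adjusted p = 0.00393). B4galt5, the other lactosylceramide synthase, stood at 10.3, 5.97 and 3.37 CPM in cTEC and 5.39, 14.0 and 4.80 in mTEC. These overlapped (-0.30, SE 0.96, adjusted p = 0.933). B4galnt1 (31.4, 33.1 and 14.9 CPM against 46.2, 40.4 and 32.0) overlapped as well (-0.58, SE 0.79, 0.797), and St3gal5 (-1.24), B3galt4 (0.09) and B3gnt5 (1.07) did not pass.

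The fucosyltransferases Fut1 and Fut2 make the fucosylated ends that UEA1 binds, so their levels between these groups bear on a property by which the cells were sorted. Fut1 stood at 0, 0.391 and 2.33 CPM in cTEC and 25.3, 34.5 and 42.5 in mTEC. The groups were well apart, and the test fell just short (-5.21, SE 1.48, adjusted p = 0.0522; 0.000814 with DESeq2). In VEC Fut1 had 1 count per group. Fut2 stood at 0, 0 and 0.0864 CPM in cTEC and 2.60, 2.32 and 8.08 in mTEC, a ratio of 154 from 148 counts against 1 (27.2 to 6111, adjusted p = 0.0522). Fut2 was also present in VEC, at 0.104, 29.4 and 8.44 CPM in tomato+ and 2.11, 16.1 and 18.0 CPM in tomato-, where Fut1 was not. The fucosyltransferases thus differed in where they were counted, Fut1 in mTEC and Fut2 in mTEC and VEC.

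**Figure D4:**
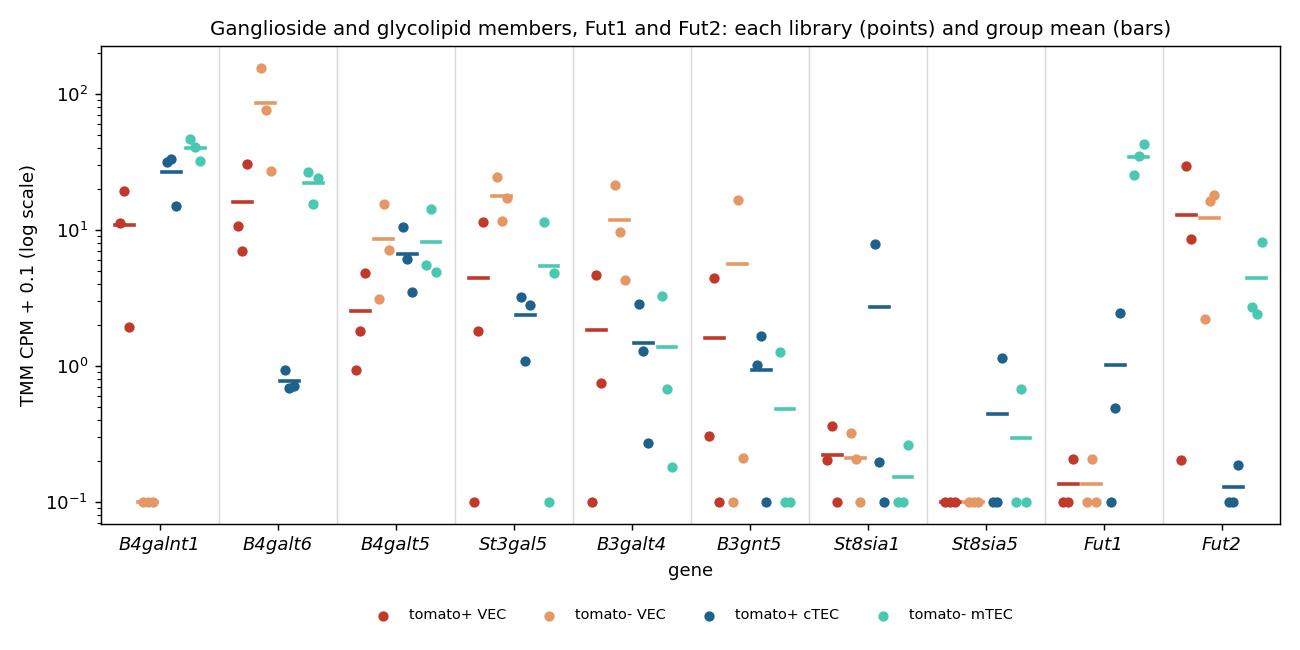
TMM CPM + 0.1 (vertical, log scale) of the 8 ganglioside and glycolipid members and of Fut1 and Fut2 in each library (points, 3 per group) with the group mean (bars). B4galnt1 was at 0 counts in all 3 tomato- VEC libraries, B4galt6 was under 1 CPM in cTEC, and Fut1 exceeded 25 CPM in mTEC alone.

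Of the chain-building enzymes B4galt4 stood at 35.0, 64.1 and 49.3 CPM in cTEC and 11.2, 15.9 and 5.36 in mTEC, without overlap (2.20, SE 0.41, adjusted p = 0.00866). Gcnt4 was separated downward at low levels (-2.36, SE 1.55, adjusted p = 0.472). St8sia4 stood at 1.10, 6.55 and 0 CPM in cTEC and had no count in mTEC, at least 25.4-fold higher (adjusted p = 0.0497). Most of its 79 cTEC counts came from the replicate with endothelial RNA, and without that library the adjusted p was 0.143. The 8 proteoglycan and chondroitin enzymes tested all had positive fitted values (median log2 0.73), none was called and none was separated.

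Tomato+ VEC and tomato+ cTEC, the reporter-positive groups, share libraries with the comparisons above. Of 57 members 17 were called, 15 higher and 2 lower in VEC, against 21.9% of all genes tested (9.45% higher and 12.4% lower). The medians were 0.39 over the members and -0.11 over all genes. Libraries did not overlap for 17 members higher and 7 lower, where 15.5% and 22.6% of all genes (38.1% together) were so separated. The calls higher in VEC were B3gnt2 (2.56), B4galt1 (1.76), B4galt6 (4.53), St8sia4 (7.03), St6galnac3 (6.87), St3gal1 (2.43), St3gal4 (3.91), St3gal6 (0.99), B4galt3 (2.39), B3gnt3 (3.45), B4galt4 (1.51), Gcnt2 (2.37), Chst15 (1.29) and St6galnac4 (2.96) on the log2 scale, with adjusted p of 0.000513 to 0.0438. Fut2 was also higher, by a ratio of 374 from 305 counts against 1 (66.7 to 14836). Its tomato+ VEC libraries had 1, 225 and 79 counts. Replicate 1 there, at 0.104 CPM, was thus barely above cTEC replicate 3, at 0.0864 CPM. B3galt5 was at least 88.3-fold lower and St3gal3 at least 24.7-fold lower, both with no count in tomato+ VEC. In fits without a library, 10 of the 17 calls were made each time. B3galt6, which builds the proteoglycan linker, was separated downward without a call (-4.32, SE 1.59, adjusted p = 0.0734), as were St8sia2 (-2.13, adjusted p = 0.329) and B3gnt4 (-1.05, 0.476). St6galnac2 (2.99, adjusted p = 0.109) and St6galnac6 (3.10, 0.314) were separated upward.

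Whether the tomato+ minus tomato- difference was the same in VEC and TEC was tested as the difference of the 2 contrasts, in which 2 of 57 members were called against 3.08% of all genes (1.54% in each direction). The TEC contrast is cTEC against mTEC, so its reporter part cannot be told apart from cortex against medulla. St3gal6 had a fitted value of -0.94 in VEC, which did not pass, and 2.90 in TEC, which did, a difference of -3.83 (SE 0.34, adjusted p = 0.000277). B4galnt1 was at least 92.7-fold higher in tomato+ VEC and differed by -0.58 in TEC, a difference of at least 7.12 on the log2 scale from the counts (fitted 10.30, SE 1.59, adjusted p = 0.00948). Both calls were made in all 12 fits without a library. The differences of Fut2 (adjusted p = 0.135), Gcnt1 (-4.77, 0.151), B4galt6 (2.56, 0.192) and B3gnt3 (-2.70, 0.256) did not pass.

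The lists of neighbouring pathways, 104 genes in 7 lists, hold genes that supply and carry the products of these members. Their counts in VEC against TEC stand beside 14.4% higher and 21.8% lower among all genes tested, and nothing particular to a list is read from them. Of 9 tested scaffolds of L-selectin ligands, 4 rose in VEC over TEC, led by Cd34 (6.91), Podxl (6.31), Emcn (8.37) and Mcam (5.07), and 2 fell. Of 3 tested selectins and sialic acid receptors, the vessel selectins Sele (8.42) and Selp (7.79) rose and Siglece fell. Of 13 glycolipid genes 6 rose and 3 fell, with Ugcg, which makes glucosylceramide, at 3.67, A4galt, which makes globo-series lipids, at 7.62 and Hexa at 2.58. Of 10 N-glycan branching genes 4 rose and 2 fell, with Man1a at 2.55 and Mgat3, which adds the bisecting sugar, called lower with 1 count over the tomato+ VEC libraries. Of 20 donor supply genes 2 rose and 3 fell. These included both synthases of the sulfate donor, in opposite directions, with Papss2 at 3.77 and Papss1 at -2.23. Of 12 genes that start O-glycans 3 rose and 3 fell (Galnt14 and Galnt3 lower, each with 1 count in tomato+ VEC, and Galnt1 higher by 1.54). Of 22 heparan, tyrosine and chondroitin genes 7 rose and 6 fell (Csgalnact1 2.92, Tpst2 3.82, Dse -3.69). Between the VEC groups 1 of the 9 scaffolds, Glycam1, was called, lower in tomato+ VEC, and no tested gene was called in the lists of selectins and receptors, O-glycan start, N-glycan branching, donor supply, or heparan, tyrosine and chondroitin synthesis. The Glycam1 call was lost in 4 of 12 fits without a library. Between cTEC and mTEC, where 2.73% of all genes were called higher and 5.1% lower, Man2a1 rose (3.23) with Mgat2 (1.91) and Mgat3 (2.45), while Papss2 (-3.15), Hs3st3b1 (-5.15) and Madcam1, at least 579.8-fold lower, fell in cTEC. Of these 6 calls, those of Man2a1 and Hs3st3b1 were made in every fit without a library, and the others were lost in 4 to 6 of 12.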

How the data were processed

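Poly(A) RNA of sorted mouse thymic stromal cells was made into cDNA with a SMARTer ultra-low input kit and sequenced, per the labels' protocols. Per the file headers, the deposited table held a raw read count for each gene in each library. It also held RPKM values that the authors had computed. All 180417 RPKM values tested equalled count, library total and gene length combined, within a relative tolerance of 1e-06. TopHat2 2.0.10 and mm9 are named, per the submitters' processing notes. For the read counter and annotation, no source used here gives a name. Counts were tested with edgeR 4.0.16 (R 4.3.3, limma 3.58.1): filterByExpr with a minimum count of 10, TMM scaling, 1 term per group over all 12 libraries (8 residual degrees of freedom), and the quasi-likelihood test with Benjamini-Hochberg adjustment over 14792 genes at a threshold of 0.05. The code was tested on simulated data. In all 5 contrasts were fitted, VEC against TEC as the mean of the group log means.

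Depth was 8388869 to 11807130 counts per library. Replicate libraries differed by more than sampling noise. A group with no count was set to 3 counts, and ratios with 1 to 3 counts carry 95% exact counting intervals, which cover counting error only. Alternatives were DESeq2 1.42.0, scaling by relative log expression, dropping the low-count filter, fitting the compared groups alone, a block for the replicate number, and leaving out each of the 12 libraries. Members and lists were chosen with earlier results of these data known. Named in each comparison were all called members and up to 12 further members by smallest p whose libraries did not overlap, reaching 5 CPM as a mean on a side and 1 in absolute log2 fold change; all selectin ligand and ganglioside members, Fut1 and Fut2; and the 5 highest by RPKM in each group. St6galnac2 was named between the VEC groups for its call in a fit without a library. Gcnt7, St6galnac1 and St6galnac5 had the same counts as other symbols and were not interpreted. Promoter sequences are RefSeq's (GRCm38.p6), and 74 members matched RefSeq symbols. RefSeq coordinates were not applied to the mm9 counts, and overlaps between genes are those of RefSeq. A result of the glycolipid list is not reported here.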

Additional observations from a re-analysis of the deposited data

Results flagged for a closer look

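The tomato+ minus tomato- difference of 2 members was not the same in endothelium and epithelium, by the test of the difference itself (edgeR quasi-likelihood test, Benjamini-Hochberg adjustment). In the epithelium this difference is cTEC against mTEC, so the reporter cannot be told apart from cortex against medulla. For St3gal6 the VEC difference minus the TEC difference was -3.83 on the log2 scale (adjusted p = 0.000277), with all 3 tomato+ VEC libraries below all 3 tomato- VEC libraries and all 3 cTEC libraries above all 3 mTEC libraries. Its VEC difference alone did not pass (adjusted p = 0.0698), and Dcbld2 lies on the same stretch. For B4galnt1 it was 10.30 as fitted and at least 7.12 from the counts (adjusted p = 0.00948), with counts in 3 of 3 tomato+ VEC libraries, in 0 of 3 tomato- VEC libraries and in all TEC libraries. With only the VEC libraries in the fit, its VEC difference had an adjusted p of 0.120. Slc26a10 lies on the same stretch, with means of 144 CPM in tomato+ and 0.0353 CPM in tomato- VEC. Its reads cannot be told apart from those of B4galnt1 here.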

How the results depend on the processing

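The 34 members called between VEC and TEC came to 25 to 35 under the alternatives, and the 17 called between tomato+ VEC and cTEC to 12 to 22. The DESeq2 fit and the fit without the low-count filter also covered members that the filter had removed. Their counts can include such members. The 2 members called between the VEC groups became 9 with DESeq2, 1 with only the libraries compared and 1 with the replicate block, and 1 to 4 over the fits without a library. The 5 called between cTEC and mTEC became 10 with DESeq2 and 3 to 6 without a library, and the 2 called for the difference became 6 with DESeq2 and 2 to 3 without a library. Over all genes, the 244 calls between the VEC groups became 1339 with DESeq2, 112 with only the libraries compared and 385 without tomato+ VEC replicate 3. The 1158 between cTEC and mTEC became 2348 with DESeq2, 2487 with only the libraries compared and 428 to 1193 without a library, and the 456 for the difference became 1575 with DESeq2, 269 with the replicate block and 159 to 512 without a library. The cause was not tested. Deviations of log2 CPM from the group means correlated at -0.014 to 0.069 between same-numbered libraries, so the numbers were not taken to pair them. Replicates 2 and 3 did correlate best with their own number in each pair of groups compared. Replicate 1 did so only between tomato+ VEC and cTEC. The labels do not say whether the numbers mark a shared animal or day. With the block the adjusted p was 0.0874 for Gcnt1 between the VEC groups, and between cTEC and mTEC 0.0712 for Chst2 and 0.0775 for St8sia4, which lost the call, and 0.0440 for Fut1 and 0.0467 for Fut2, which gained it. Of 2078 alternative values of 126 named member values, 1844 kept direction and side of the threshold, 172 lost the call, 33 gained it and 29 changed sign, all of the last for members not called. With the replicate block the VEC values of Fut1 and Fut2 were -0.31 and -0.39, and that of B3gnt5 between tomato+ VEC and cTEC -0.0058. B3galt4 between cTEC and mTEC was -0.017 with DESeq2 and with relative log expression scaling (-0.017). Without a library, between the VEC groups B3gnt5 ranged from -5.55 to 4.47, Fut1 from -1.96 to 2.00 and Fut2 from -1.47 to 0.66. Between cTEC and mTEC B3galt4 ranged from -0.97 to 2.06, B4galt5 from -0.83 to 0.38 and St3gal4 from -2.08 to 0.99. Between VEC and TEC B3gnt5 ranged from -0.81 to 4.81, Chst2 from -0.82 to 0.64 and Gcnt1 from -0.82 to 0.035. Between tomato+ VEC and cTEC B3galt4 ranged from -2.01 to 1.43, B3gnt5 from -2.83 to 1.74, Chst2 from -1.16 to 1.82 and St3gal5 from -1.39 to 1.57. For the difference B3gnt5 ranged from -7.90 to 3.35, Chst2 from -0.68 to 2.36 and St3gal4 from -2.45 to 0.64. B3gnt5 had 0, 155 and 1 counts in the tomato- VEC libraries.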
